A study of Mus musculus with 5 samples.

Results

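The interleukin-6 family examined here comprised 10 genes, 6 of them cytokines (Il6, Il11, Lif, Clcf1, Osm and Cntf) and 4 of them receptor subunits (Il6st, Il6ra, Osmr and Lifr). They were chosen by name as a known gene family, by a rule that reads no measured value, though with earlier results of these data known, and all 10 were found among the 20178 transcripts of the deposited tables. Members of the family bind receptor complexes that contain gp130, the signalling subunit encoded by Il6st, and activate JAK kinases and the transcription factor STAT3. Specificity comes from the other subunits, since IL-6 and IL-11 use gp130 alone as signal transducer, whereas LIF, CNTF and CLCF1 pair it with the LIF receptor and mouse OSM mainly with the OSM receptor. In the brain these cytokines are known for driving reactive gliosis, for directing precursor cells towards astrocytes and for supporting the survival of neurons.

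RNA-seq was available for 5 cultures of ICR mouse cells at passage 2, with 1 library per condition and no replicate. Of the 4 cultures labelled as astrocyte progenitor cells from pups at postnatal day 5, 3 came from the ventral midbrain (VM) and 1 from the cortex (Ctx), and the fifth culture was labelled as cortical neural progenitor cells (NPCs) of embryonic day 12. The first VM culture was not transduced, and the VM NF and VM C cultures are named here by their titles. According to the methods, the Nurr1 (mouse) and Foxa2 (rat) lentiviral vectors carried their cDNAs under the CMV promoter, and an empty backbone served as control. The titles and the treatment entries of VM C and VM NF contradict each other, since the entry of VM C names the viruses for Nurr1 and Foxa2 and that of VM NF the mock virus. Reads of Nr4a2, the gene of Nurr1, numbered 81 in untransduced VM, 53 in VM C and 183 in VM NF, and those of Foxa2 were 68, 15 and 216. Among the VM libraries both genes were highest in VM NF, which is the order given by the titles. Over untransduced VM, Nr4a2 was 2.36-fold and Foxa2 3.31-fold higher in VM NF. Over VM C, Nr4a2 was 3.80-fold and Foxa2 15.5-fold higher in VM NF. Both genes were also lower in VM C than in untransduced VM, by 1.61-fold and 4.67-fold. These ratios rest on 1 library per condition and few reads, and the Foxa2 cDNA was from rat. The check is therefore a weak one, and which of the labels is right was not settled. Ratios below compare libraries by title, so an exchange of the labels would exchange which of the 2 libraries is the control and leave the values as they are.

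Library totals lay between 20010818 and 22554835 reads. Levels are given as FPKM, in which reads are divided by transcript length and library total so that genes can be compared with each other, as CPM, in which reads are scaled to the library total alone, or as reads. Ratios are log2 ratios of reads scaled to library totals with 0.5 reads added, followed by an exact (Clopper-Pearson) 95% interval. These intervals cover counting error of the reads only and hold no variation between cultures, so no test of the conditions was possible. A gene was counted as higher or lower at 2-fold or more with FPKM > 1 in either of the libraries compared. All 10 astrocyte markers examined, such as Gfap and Aqp4, had FPKM > 1 in every library, but their summed CPM was highest in the Ctx NPC library, at 10804, against 1673 to 4413 in the others. Oligodendrocyte markers summed to a CPM of 7756 in Ctx NPCs, against 216 to 426 elsewhere, so this library held transcripts of differentiated glia beside all 8 neural precursor markers examined. In such bulk cultures, fewer cells of a type and less RNA per cell cannot be told apart.

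The promoters of the members are shown first, as a description of their sequence, and their part in the ratios between libraries was not tested. RefSeq promoter sequences on GRCm38.p6 were found for 8 of the 10 members, without Osm and Clcf1. The 250 bases before the RefSeq start are printed 5′ to 3′ on the strand of the gene for the 4 cytokines with a sequence. Where RefSeq had several starts, the one nearest to the GENCODE M21 start of the listed transcript was used, at a distance of 11 bases for Lif, 34 for Il6ra, 656 for Osmr and 0 for the other 5. The starts used for Il11, Lifr and Osmr lie inside the gene spans given below. Capitals mark matches, on either strand, to an AP-1 motif (TGANTCA), a kappaB-type motif (GGNNTTTCC) or a C/EBP-type motif (TTGCNNAA), and a STAT-type motif (TTCNNNGAA) was also searched.
Il6, chr5:30012864-30013113, + strand: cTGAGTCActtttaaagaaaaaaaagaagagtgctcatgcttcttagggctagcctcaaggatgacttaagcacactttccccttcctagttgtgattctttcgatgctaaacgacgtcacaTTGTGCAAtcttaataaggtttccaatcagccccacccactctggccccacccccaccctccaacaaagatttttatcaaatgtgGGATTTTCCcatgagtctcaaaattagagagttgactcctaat
Il11, chr7:4778142-4778391, - strand: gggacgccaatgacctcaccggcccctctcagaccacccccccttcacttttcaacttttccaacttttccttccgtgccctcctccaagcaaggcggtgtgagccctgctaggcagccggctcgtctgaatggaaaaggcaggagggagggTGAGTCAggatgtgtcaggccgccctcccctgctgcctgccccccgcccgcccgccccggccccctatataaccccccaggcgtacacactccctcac
Lif, chr11:4257318-4257567, + strand: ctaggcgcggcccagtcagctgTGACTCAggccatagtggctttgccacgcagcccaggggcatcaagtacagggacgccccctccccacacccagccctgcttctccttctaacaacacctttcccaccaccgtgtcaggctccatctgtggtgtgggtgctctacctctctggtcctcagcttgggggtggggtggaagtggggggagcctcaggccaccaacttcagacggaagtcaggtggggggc
Cntf, chr19:12765633-12765882, - strand: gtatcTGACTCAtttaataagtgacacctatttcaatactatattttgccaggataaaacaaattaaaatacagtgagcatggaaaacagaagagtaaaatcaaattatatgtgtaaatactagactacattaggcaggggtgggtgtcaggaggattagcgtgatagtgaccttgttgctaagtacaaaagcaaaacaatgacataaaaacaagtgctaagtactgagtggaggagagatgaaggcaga

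An AP-1 match was present in all 4 of these windows, that of Cntf included, and in 6.75% of the 32851 promoter windows of the same length in the table. It began 249 bases before the start in Il6, 98 in Il11, 228 in Lif and 245 in Cntf. Il6 also held a kappaB-type match 43 bases before the start and, on the opposite strand, a C/EBP-type match 128 bases before it. The kappaB-type motif occurred in 4.93% of all windows, the C/EBP-type motif in 9.56% and the STAT-type motif in 7.02%. None of the 4 motifs matched the windows of Il6st, Il6ra, Osmr and Lifr. No matches overlapped. These are matches of letters within 250 bases and describe the sequence only.

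The cytokine genes varied far more across the 5 libraries than the receptor genes did. The highest level exceeded the lowest by 11.9-fold in Lif, 13.5-fold in Clcf1, 16.1-fold in Cntf, 119-fold in Il11 and 153-fold in Il6, and by at least 178-fold in Osm, whose lowest library held 0 reads and was set to a floor of 3 reads. For the receptors the same range was 1.44-fold in Il6st, 2.07-fold in Osmr, 2.69-fold in Il6ra and 4.10-fold in Lifr. The plot of FPKM by library shows this contrast.

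**Figure D1:**
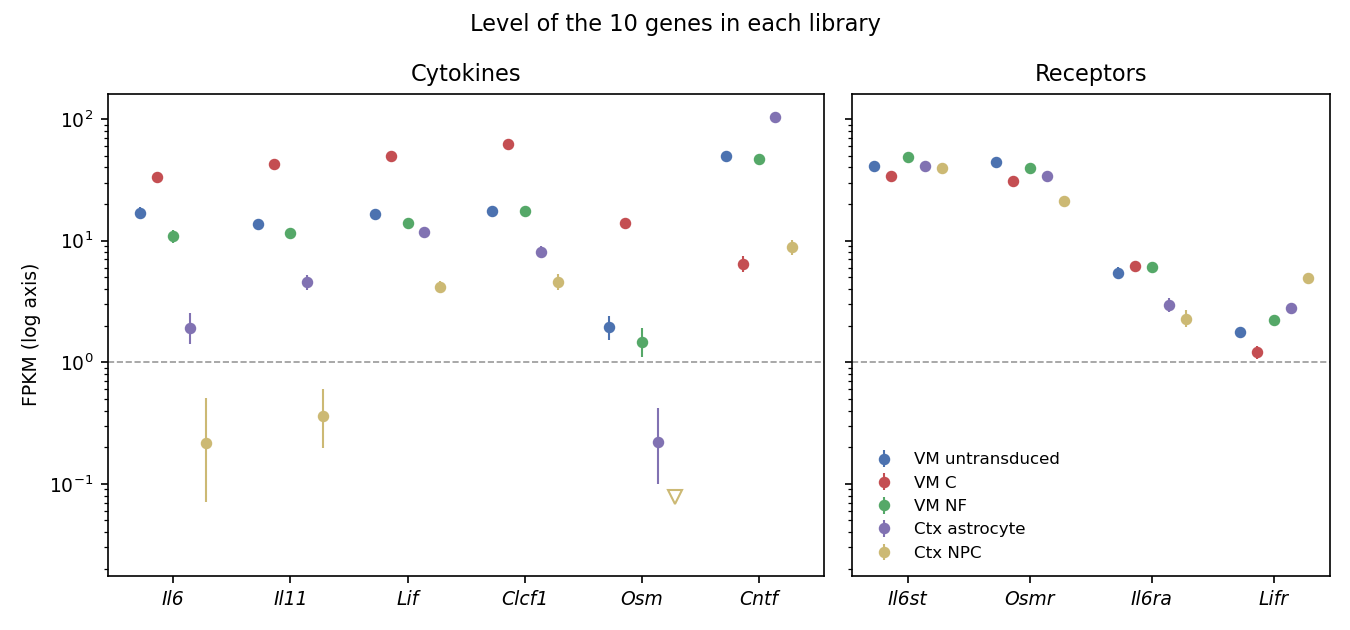
FPKM (log axis) of the 6 cytokine genes and 4 receptor genes in the 5 libraries, 1 library per condition, with bars for the 95% counting interval and a dashed line at FPKM 1. VM C stands highest for 5 cytokine genes and lowest for Cntf, while Il6st stays between 34.2 and 49.2, and the open triangle marks the floor of 3 reads for Osm, which had 0 reads in Ctx NPCs.

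Il6, the founding cytokine of the family and a mediator of the acute phase response (chr5:30013114-30019975), had FPKM of 17.0 in untransduced VM, 33.4 in VM C, 10.9 in VM NF, 1.91 in Ctx astrocytes and 0.218 in Ctx NPCs. These rest on 416, 863, 253, 47 and 5 reads. The 3 VM libraries thus lay above both cortical ones, and all neighbours in this order differed beyond counting error. Il11, a cytokine with known roles in stromal and fibroblast responses (chr7:4772373-4782907), followed the same order, with FPKM of 13.8, 42.6, 11.5, 4.55 and 0.359. It rested on 574, 1874, 454, 190 and 14 reads.

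Lif, which maintains precursor cells and promotes astrocyte differentiation (chr11:4257568-4272514), had FPKM of 16.5, 49.9, 14.1, 11.7 and 4.19 in untransduced VM, VM C, VM NF, Ctx astrocytes and Ctx NPCs. Its reads were 1413, 4525, 1151, 1009 and 337, with VM C at the top and Ctx NPCs at the bottom. Clcf1, a secreted ligand of the CNTF receptor (chr19:4214238-4223505), had FPKM of 17.4, 62.0, 17.7, 8.10 and 4.58, from 693, 2606, 670, 324 and 171 reads. It was the most abundant cytokine of the family per transcript length in VM C, and VM NF and untransduced VM did not differ beyond counting error.

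Osm, a cytokine made chiefly by myeloid cells and T cells (chr11:4236785-4241026), was the least abundant cytokine of the 6 in the untransduced VM, VM NF and both cortical libraries. Its FPKM was 1.94, 14.0, 1.47, 0.220 and 0 in untransduced VM, VM C, VM NF, Ctx astrocytes and Ctx NPCs, from 79, 603, 57, 9 and 0 reads. The count of 0 allows up to 3 reads, or an FPKM of 0.0785. Only VM C stood well above FPKM 2, and untransduced VM and VM NF did not differ beyond counting error. Osm and Lif are neighbours on chromosome 11, with 16541 bases between the end of Osm and the start of Lif.

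Cntf, a survival factor for neurons that astrocytes make and that lacks a signal peptide for secretion (chr19:12763528-12765632), had another order, in which VM C and Ctx astrocytes took other places. Its FPKM was 49.5 in untransduced VM, 6.39 in VM C, 46.6 in VM NF, 103 in Ctx astrocytes and 8.82 in Ctx NPCs. It rested on 1273, 174, 1144, 2670 and 213 reads. VM C was the lowest of the 5 libraries for Cntf and the highest for each of the other 5 cytokines. Untransduced VM and VM NF did not differ beyond counting error. Cntf lies within a read-through transcription unit that joins it to Zfp91 (Gm44505, chr19:12763528-12796123), which has no entry of its own in the tables, so its reads and those of the joined transcript could not be told apart. Zfp91 itself had 3457, 3569, 3736, 3782 and 3849 reads in the same order of libraries, a log2 ratio of -0.04 between VM C and untransduced VM.

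Because these levels are per length, the make-up of the cytokine transcripts can be compared. The FPKM of the 6 cytokines summed to 116 in untransduced VM, 208 in VM C, 102 in VM NF, 129.7 in Ctx astrocytes and 18.2 in Ctx NPCs. Cntf made up 42.6% of the sum in untransduced VM, 45.6% in VM NF, 79.6% in Ctx astrocytes and 48.5% in Ctx NPCs, but 3.07% in VM C. VM C was led by Clcf1 (29.7%), Lif (24.0%) and Il11 (20.5%). Ctx NPCs had little of any cytokine, with Clcf1 (25.2%) and Lif (23.1%) after Cntf. The summed receptor FPKM stayed between 67.9 and 97.2, of which Il6st and Osmr together formed the largest part in every library.

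**Figure D2:**
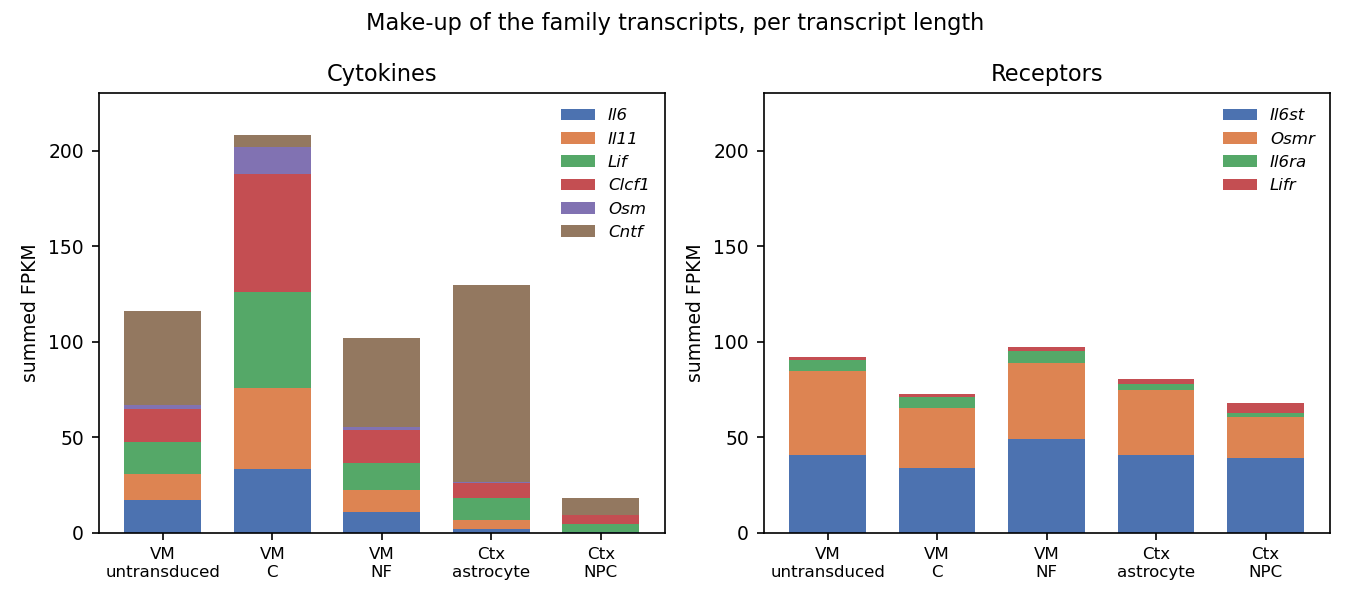
Stacked FPKM of the 6 cytokine genes and of the 4 receptor genes in each of the 5 libraries, 1 library per condition. Cntf takes 79.6% of the cytokine sum in Ctx astrocytes and 3.07% in VM C, while the receptor sums stay between 67.9 and 97.2.

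Between VM C and the untransduced VM library, 4 of the 10 members were higher by at least 2-fold, and 7.30% of the 12703 genes tested were. These were Osm (7.17-fold, log2 2.84, 2.51 to 3.21), Clcf1 (3.55-fold, log2 1.83, 1.71 to 1.95), Il11 (3.08-fold, log2 1.62, 1.49 to 1.76) and Lif (3.02-fold, log2 1.60, 1.51 to 1.68). Il6 was 1.96-fold higher (log2 0.97, 0.80 to 1.14), just under the cutoff, and its log2 ratio reached 1.02 with DESeq2's size factors, which made the count 5. Cntf alone was lower, by 7.73-fold (log2 -2.95, -3.19 to -2.72), where 8.48% of all genes tested were lower. The median log2 ratio was 1.61 over the 6 cytokines and -0.38 over the 4 receptors, against -0.01 over all genes tested. None of the receptors passed 2-fold.

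**Figure D3:**
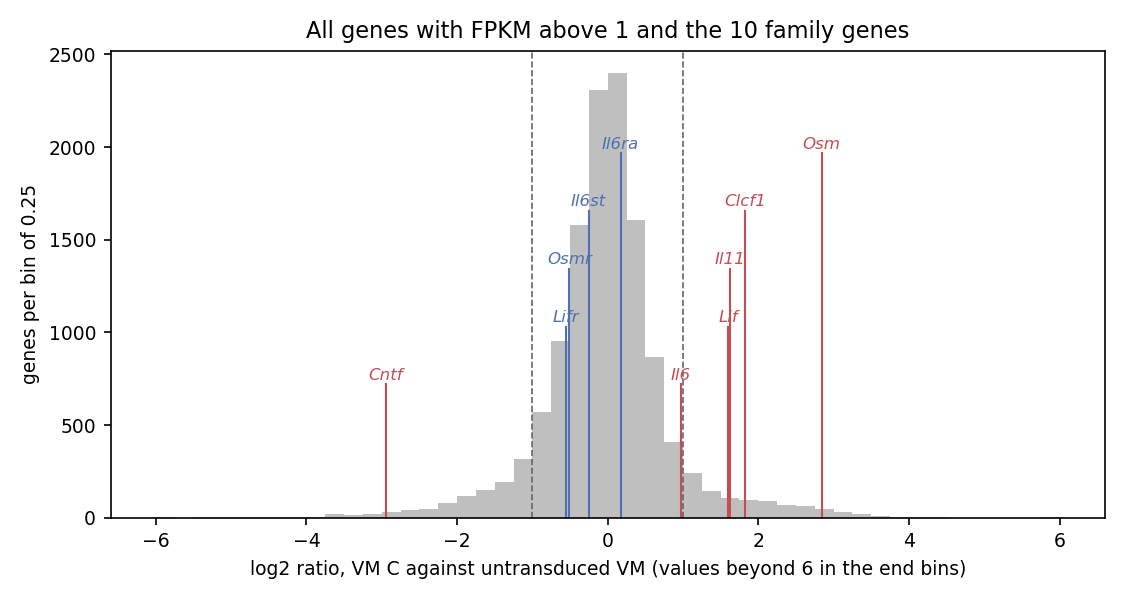
Number of genes per bin of 0.25 in the log2 ratio of VM C against untransduced VM for the 12703 genes whose FPKM passed 1 in either library, with lines at the ratios of the 6 cytokine genes (red) and 4 receptor genes (blue) and dashed lines at 2-fold. Osm, Clcf1, Il11 and Lif lie to the right of the upper dashed line, Il6 just inside it, Cntf at -2.95, and the receptors within the central part.

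The library titled VM NF differed little from untransduced VM. No member passed 2-fold in either direction, where 0.322% of the 12428 genes tested were higher and 0.668% lower. Il6 had the largest difference, a log2 ratio of -0.65 (-0.88 to -0.42), followed by Osm at -0.40 (-0.92 to 0.11), whose interval held 0. Il11 and Lif were at -0.27 and -0.23, and both intervals lay below 0. Clcf1 at 0.02 and Cntf at -0.09 had intervals that held 0. The median log2 ratio of the 6 cytokines was -0.25 and that of the 4 receptors 0.21, against -0.05 over all genes tested.

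VM NF and VM C were each set against the same untransduced library above, and the direct ratio between them shares those 2 libraries. In VM NF against VM C, 5 members were lower, where 9.73% of the 12701 genes tested were. The log2 ratio was -3.24 (-3.67 to -2.86) for Osm, -1.90 (-2.05 to -1.75) for Il11, -1.83 (-1.92 to -1.73) for Lif, -1.81 (-1.94 to -1.69) for Clcf1 and -1.62 (-1.83 to -1.42) for Il6. Cntf was the 1 member that was higher, with a log2 ratio of 2.86 (2.63 to 3.10), where 9.53% of all genes tested were. All 6 cytokine intervals lay beyond 2-fold. If the treatment entries were right, VM NF would be the mock control of this pair, and Nurr1 and Foxa2 against mock would have the opposite signs.

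**Figure D4:**
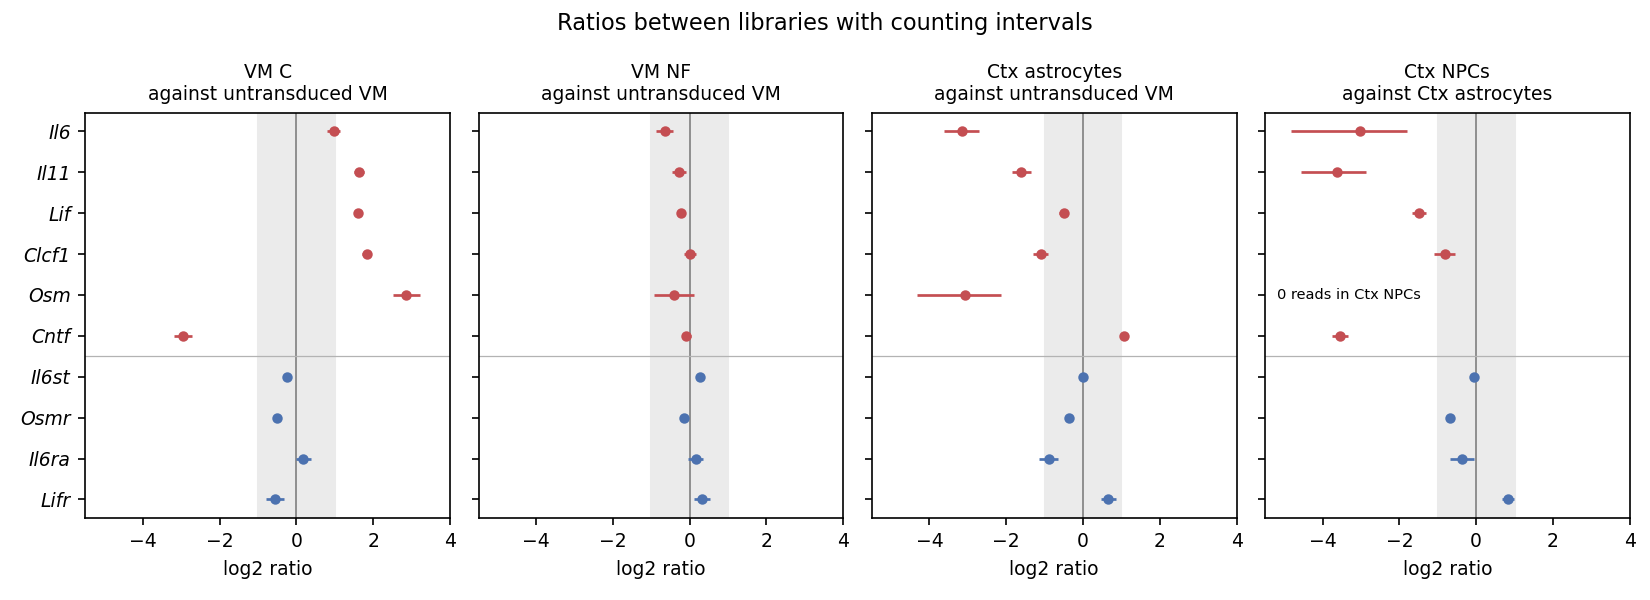
Log2 ratios of the 6 cytokine genes (red) and 4 receptor genes (blue) with their 95% counting intervals in 4 comparisons of single libraries, with the range within 2-fold shaded. The receptor ratios lie in the shaded range in each panel, the cytokine ratios of VM NF against untransduced VM do too, and Osm has no value in the last panel, where Ctx NPCs had 0 reads.

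Ctx astrocytes were also compared with untransduced VM astrocytes, a pair that differs in region and in marker levels. In this pair the median log2 ratio was 1.20 over 10 astrocyte markers, -1.37 over 10 fibroblast and meningeal markers and -1.90 over 4 endothelial markers. Region and make-up of the cultures therefore cannot be told apart. Of the 10 members, 4 were lower in Ctx astrocytes, where 9.89% of the 12553 genes tested were. Il6 was 8.82-fold lower (log2 -3.14, -3.62 to -2.72), Osm 8.41-fold lower (log2 -3.07, -4.32 to -2.15), Il11 3.03-fold lower (log2 -1.60, -1.85 to -1.36) and Clcf1 2.15-fold lower (log2 -1.10, -1.30 to -0.91). Lif was lower within 2-fold, with a log2 ratio of -0.49. Cntf was higher by 2.08-fold (log2 1.06, 0.96 to 1.16), where 4.49% of all genes tested were higher, and its interval reached below 2-fold. The interval of Clcf1 also reached within 2-fold.

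Ctx NPCs had less of every cytokine than Ctx astrocytes. Of the 9 members tested, 4 were lower, where 17.9% of the 12623 genes tested were, and none was higher, where 20.1% were. The log2 ratio was -3.62 (-4.56 to -2.88) for Il11, -3.55 (-3.76 to -3.35) for Cntf, -3.02 (-4.82 to -1.81) for Il6 and -1.48 (-1.67 to -1.30) for Lif. Clcf1 was at -0.82 (-1.10 to -0.55) and reached -1.01 with edgeR's TMM factors. Osm had FPKM under 1 in both libraries and was not counted, and its 9 reads stood 2.80-fold above the floor of 3 reads in Ctx NPCs, with a counting interval of the ratio that came as near as 1.84-fold. In this comparison the median over all genes was 0.19 and moved to between 0.01 and 0.02 with the other scalings, so each ratio is to be read against that shift.

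Among the receptors, Il6st, which encodes gp130 (chr13:112464070-112506860), was the most even gene of the family. Its FPKM was 40.7 in untransduced VM, 34.2 in VM C, 49.2 in VM NF, 40.9 in Ctx astrocytes and 39.3 in Ctx NPCs. Ctx astrocytes, untransduced VM and Ctx NPCs, the middle of its order, did not differ between neighbours beyond counting error. Osmr, the subunit through which mouse OSM signals (chr15:6813568-6874968), had FPKM of 44.1, 30.9, 39.7, 34.0 and 21.3 in the same order of libraries. These were the only 2 receptor genes of the 4 with FPKM above 20.

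Il6ra, the subunit that binds IL-6 itself (chr3:89869324-89913196), had FPKM of 5.46, 6.15, 6.08, 2.95 and 2.29 in untransduced VM, VM C, VM NF, Ctx astrocytes and Ctx NPCs. The 3 VM libraries did not differ from their neighbours in the order beyond counting error and lay above the cortical ones. Lifr, the partner of gp130 for LIF, CNTF and CLCF1 (chr15:7090610-7197489), had FPKM of 1.77, 1.20, 2.22, 2.79 and 4.94. It was the 1 receptor gene that was highest in Ctx NPCs, where 5 of the 6 cytokines were lowest. Osmr and Lifr are neighbours on chromosome 15, with 215641 bases between the end of Osmr and the start of Lifr.

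None of the 4 receptor genes passed 2-fold in any of the 5 comparisons. In VM C against untransduced VM, the log2 ratio was 0.17 (-0.02 to 0.37) for Il6ra, -0.25 (-0.31 to -0.19) for Il6st, -0.51 (-0.57 to -0.45) for Osmr and -0.55 (-0.79 to -0.32) for Lifr. Against untransduced VM, VM NF had Lifr at 0.33, Il6st at 0.27, Il6ra at 0.16 and Osmr at -0.15. Against VM C, Lifr came closest to the cutoff at 0.88 (0.66 to 1.11), Il6st was at 0.53, Osmr at 0.36 and Il6ra at -0.02, and Il6ra moved to 0.02 with edgeR's TMM factors.

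The cortical comparisons gave receptor ratios of the same order. In Ctx astrocytes against untransduced VM, the log2 ratio was -0.89 (-1.14 to -0.65) for Il6ra, -0.37 for Osmr, 0.01 for Il6st and 0.66 (0.47 to 0.85) for Lifr. In Ctx NPCs against Ctx astrocytes, it was 0.82 (0.67 to 0.98) for Lifr, -0.06 for Il6st, -0.37 for Il6ra and -0.67 (-0.75 to -0.60) for Osmr.

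The other subunits of the receptor complexes were described beside the members. Cntfr, the subunit that binds CNTF, had 838 reads in untransduced VM, 513 in VM C, 731 in VM NF, 1892 in Ctx astrocytes and 1318 in Ctx NPCs, and Il11ra1, the subunit that binds IL-11, had 918, 495, 811, 1049 and 348. Of the 3 receptor partners tested in VM C against untransduced VM, none passed 2-fold in either direction and the median log2 ratio was -0.79. Il11ra1 was just under the cutoff, at log2 -0.97 (-1.13 to -0.81), and of the 3 ratios 2 were below 0 and 1 above. None passed in VM NF against untransduced VM or against VM C. In Ctx astrocytes against untransduced VM, 1 of 3 was higher, Cntfr (log2 1.17), and in Ctx NPCs against Ctx astrocytes 1 of 2 was lower, Il11ra1 (log2 -1.49).

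Among the other gp130-type ligands, Ebi3, the shared subunit of IL-27 and IL-35, had 67, 187, 40, 19 and 17 reads in untransduced VM, VM C, VM NF, Ctx astrocytes and Ctx NPCs. It was higher in VM C than in untransduced VM (log2 1.39), and lower in VM NF than in VM C (log2 -2.06) and in Ctx astrocytes than in untransduced VM (log2 -1.80). Ctf1, encoding cardiotrophin-1, had 178, 96, 145, 186 and 70 reads and was lower in Ctx NPCs than in Ctx astrocytes (log2 -1.30).

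Inside the cell, none of the 10 genes for kinases and transducers, among them Jak1, Jak2 and Stat3, passed 2-fold in the 4 comparisons that involve VM libraries, with median log2 ratios from -0.15 to 0.12. Stat3 had FPKM of 66.2, 54.7, 63.3 and 69.5 in untransduced VM, VM C, VM NF and Ctx astrocytes and 112 in Ctx NPCs. In Ctx NPCs against Ctx astrocytes, 1 of the 10 was lower, Stat5a (log2 -2.17). Of the 9 inhibitors, Ptpn6, a phosphatase that is abundant in myeloid cells, was the 1 that was higher in VM C than in untransduced VM (log2 2.14), and none was lower. None passed 2-fold in VM NF against untransduced VM. Ptpn6 was lower in VM NF than in VM C (log2 -3.09), and Cish, a feedback inhibitor of STAT5 signalling, was higher (log2 1.07). Ptpn6 (log2 -2.27) and Socs1 (log2 -1.53) were lower in Ctx astrocytes than in untransduced VM. In Ctx NPCs against Ctx astrocytes, Socs2 was higher (log2 2.20) and Nfkbiz lower (log2 -1.03). Socs3, the feedback inhibitor of gp130 and a direct STAT3 target, had 4064, 3956 and 3995 reads in the 3 VM libraries, 2832 in Ctx astrocytes and 2743 in Ctx NPCs.

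A list of 20 genes known to respond to gp130 and STAT3 held genes that differed in both directions. In VM C against untransduced VM, 4 were higher and 3 lower, with a median log2 ratio of 0.01, where 7.30% and 8.48% of all genes tested were. The higher ones were Timp1, a metalloproteinase inhibitor (log2 2.24), Cd14, a co-receptor for endotoxin that myeloid cells express (log2 1.85), Ch25h (log2 1.35) and the acute phase gene Saa3 (log2 1.13). The lower ones were the transcription factor genes Cebpd (log2 -1.61) and Junb (log2 -1.14) and the metalloreductase gene Steap4 (log2 -1.14). None of the 20 passed 2-fold in VM NF against untransduced VM, where the median was -0.24.

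In VM NF against VM C, 3 of the 20 target genes were higher and 7 lower, where 9.53% and 9.73% of all genes tested were. The lower ones were led by Cd14 (log2 -2.62), Timp1 (log2 -2.59), Ch25h (log2 -2.30) and Hp (log2 -1.63). In Ctx astrocytes against untransduced VM, 3 were higher and 4 lower, where 4.49% and 9.89% of all genes tested were. In Ctx NPCs against Ctx astrocytes, 2 of 19 were higher and 11 lower, where 20.1% and 17.9% of all genes tested were. The median log2 ratio of the targets in that pair was -1.27. The lower ones included Lcn2 (log2 -4.80), Timp1 (log2 -3.61), Ch25h (log2 -3.24) and the interleukin-4 receptor gene Il4ra (log2 -2.66), whereas Gfap was higher (log2 2.24).

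Genes known to induce the cytokines were also counted, 14 of 15 being tested in the 4 comparisons that involve VM libraries. For these and for the cell type markers below, the shares of all genes past 2-fold are those given above for each comparison. In VM C against untransduced VM, 5 were higher, led by Tnf (log2 2.53), Il1a (log2 2.17), Tlr4 (log2 2.10) and Tlr2 (log2 1.87), and 1 was lower, with a median log2 ratio of 0.54. In VM NF against untransduced VM, Il1b (log2 -1.68) and Tnf (log2 -1.04) were lower and none was higher. In VM NF against VM C, 5 were lower and 1 higher, in Ctx astrocytes against untransduced VM 4 were lower and 1 higher, and in Ctx NPCs against Ctx astrocytes 6 of 12 were lower.

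Markers of microglia moved in the direction of Il6, Il11, Lif and Osm, and of Clcf1 except between VM NF and untransduced VM. Cntf moved the other way between VM C and untransduced VM. Of 15 markers, 14 were found in the tables, and their summed CPM was 362 in untransduced VM, 1338 in VM C, 271 in VM NF, 141 in Ctx astrocytes and 27.6 in Ctx NPCs. This is the order of the libraries for Il6, Il11, Lif and Osm. Clcf1 had the same order apart from an exchange of untransduced VM and VM NF. For Clcf1 and for Osm, these 2 libraries did not differ beyond counting error. In VM C against untransduced VM, 12 of the 13 markers tested were higher, among them Ptprc (log2 2.93), Spi1 (log2 2.84), Aif1 (log2 2.66) and Csf1r (log2 2.52), and their median log2 ratio was 1.99. In VM NF against VM C, 12 of 13 were lower (median log2 -2.66), in VM NF against untransduced VM 1 of 12 (median -0.53), in Ctx astrocytes against untransduced VM 11 of 12 (median -1.63) and in Ctx NPCs against Ctx astrocytes 10 of 10 (median -4.76). No marker of the 14 was at 0 reads in the astrocyte libraries, and 1, Trem2, was at 0 in Ctx NPCs. In Ctx NPCs, a library that held transcripts of differentiated glia, 1 of the 14 microglial markers had FPKM > 1. Lif, Clcf1 and Cntf had FPKM of 4.19, 4.58 and 8.82 there. The part of microglial transcripts in the cytokine ratios and in these levels was not tested.

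Other cell type markers also differed between VM C and untransduced VM, the pair in which most cytokines were higher. Of the oligodendrocyte markers, 7 of 8 tested were higher (median log2 2.01), and their summed CPM was 426 in VM C and 270 in untransduced VM. Of 7 oligodendrocyte progenitor markers, 4 were higher and none lower (median log2 1.23). Of 7 neuron markers tested, 3 were higher and 1 lower, and of 6 neural precursor markers none was higher and 1 lower. All 5 ependymal markers tested were lower (median log2 -2.51). Of 10 fibroblast and meningeal markers, none was higher and 3 were lower (median log2 -0.29). The summed CPM of the latter was 4963 in VM C, 7023 in untransduced VM and 8346 in VM NF. Ependymal markers summed to a CPM of 360 in untransduced VM, 66.7 in VM C, 338 in VM NF, 498 in Ctx astrocytes and 143 in Ctx NPCs. The ependymal sum and Cntf were both highest in Ctx astrocytes and lowest in VM C. Astrocyte markers summed to 2021, 1673, 1751, 4413 and 10804 in the same order of libraries, also lowest in VM C. Endothelial markers summed to 71.0, 139, 82.2, 30.7 and 8.40. In VM C against untransduced VM, 2 of the 4 endothelial markers tested were higher and 1, Kdr, was lower (log2 -1.24). The part of any of these markers in the ratios of the members was not tested.

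Genes with the pattern most like that of a member were named by the root mean square difference of log2 levels over the 5 libraries, after each gene's mean was subtracted, among 13298 genes. These likenesses rest on 5 libraries that all genes share and are a description. For Il6 the nearest were Ccl8 (0.08), Gpr39 (0.19) and Ppbp (0.24), for Il11 Serpinb1c (0.09), Cfb (0.10) and Ptger2 (0.11), for Lif Slc7a8 (0.12), Adora2b (0.13) and Glrx (0.14), and for Clcf1 Prkch (0.10), Nox4 (0.16) and Acsl4 (0.17). For Osm they were Il1rn, the interleukin-1 receptor antagonist (0.30), the Fc receptor gene Fcgr1 (0.30) and Slc6a2 (0.32). For Cntf they were Aass (0.17), Fn3k (0.22) and Wfdc3 (0.25), and for Lifr Pcdhga11 (0.06), Pcdhga3 (0.06) and Fzd3 (0.08). Ccl8, Ppbp, Serpinb1c and Wfdc3 had at most 81 reads in a library and belong to multigene families, as do the protocadherins, which share constant exons, so their reads are uncertain.

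Among the 6 cytokines, Lif and Clcf1 were closest to each other, with a difference of 0.31, and Clcf1 ranked 34 among the genes nearest to Lif. The difference between Il6 and Il11 was 0.52. Of the receptor genes only Lifr met the rule for ranking, and it lay 0.65 from Il6st, 0.95 from Osmr and 1.24 from Il6ra. Osm lay 0.96 from Il6 and 1.16 from Il11. Cntf differed from each of the other members by 1.34 to 3.78, with Osm the farthest.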

How the data were processed

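Total RNA of 5 mouse cultures was sequenced, 1 library per condition. The methods describe trimming at a quality score of 20, mapping to GRCm38/mm10 with STAR and counting on RefSeq exons with HTSeq-count. The submitters' processing notes name mm9, bcl2fastq 1.8.4, STAR, HTSeq and DESeq. The deposited tables hold raw read counts per RefSeq transcript and FPKM, which the authors computed from count, transcript length and library total. The tables hold no coordinates, so positions and promoter sequences come from RefSeq on GRCm38.p6, and they do not depend on which build the reads were mapped to. Strandedness of the counting is not given in the sources used here. Il6ra has an annotated antisense gene at its 5′ end, and Clcf1 lies in a read-through unit of another annotation, so their reads could include others.

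Of 20178 transcripts, 19993 were paired with a symbol and 185 were left without one. Log2 ratios were taken of counts divided by library totals, with 0.5 reads added, and given exact (Clopper-Pearson) 95% intervals. These hold counting error alone, and PCR copies make reads less independent than molecules. A count of 0 was given a floor of 3 reads. The calculations were tested on simulated counts. A few pathway genes are not reported here and were left out of the list counts. The members and lists were chosen with earlier results of these data known. All 10 members were named, with Nr4a2 and Foxa2 to check the labels, up to 4 genes per pathway list and comparison past 2-fold by size, and the 3 genes most like each member with 100 or more reads in all and a 4-fold range. Stat3, Socs3, the receptor partners, Ebi3, Ctf1, Zfp91, the microglial markers and, in some comparisons, the target genes Saa3, Junb, Steap4 and Gfap were named beyond this rule, after their values were seen. Marker lists of neurons, endothelial cells, neural precursors and oligodendrocyte progenitors were also computed. Alternatives were edgeR's TMM factors, DESeq2's size factors, upper-quartile scaling, 5 reads added, other filters on FPKM, a cutoff of 2.6-fold and the whole interval past 2-fold. The software was edgeR 4.0.16 and DESeq2 1.42.0 in R 4.3.3, and numpy 2.4.6, pandas 2.3.3, scipy 1.17.1 and matplotlib 3.10.9 in Python 3.11.15.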

Additional observations from a re-analysis of the deposited data

How the results depend on the processing

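No paired analysis was possible because each condition had 1 library and no test was made. For the same reason no replicate could be left out, and the ratios describe single libraries. No result turned its direction beyond its counting interval. Of 200 log2 ratios of members under an alternative, 189 moved within their counting interval and 11 moved beyond it, 10 of them in Ctx NPCs against Ctx astrocytes, where the median of all genes shifts with the scaling. Of 80 counts of members, 77 stayed within 1.5 times the reported count. The cause of the other moves was not tested unless given. At a cutoff of 2.6-fold, and where the whole interval had to pass 2-fold, 0 members were higher in Ctx astrocytes than in untransduced VM, since the value of Cntf lies close to 2-fold. With FPKM > 1 in both libraries, 2 members were lower in Ctx NPCs than in Ctx astrocytes, since Il6 and Il11 fall under that filter.

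The counts over all genes moved as the filters are built. With no filter on low values, they were 2042 higher and 2288 lower in VM C against untransduced VM, 759 and 1020 in VM NF against untransduced VM, 2388 and 2453 in VM NF against VM C, 1319 and 2759 in Ctx astrocytes against untransduced VM, and 3961 lower in Ctx NPCs against Ctx astrocytes. With FPKM > 1 in both libraries, 687 were lower in VM C against untransduced VM, 23 higher and 39 lower in VM NF against untransduced VM, 755 lower in Ctx astrocytes and 1460 lower in Ctx NPCs. At 2.6-fold they were 598 and 648 in VM C against untransduced VM, 11 and 24 in VM NF against untransduced VM, 682 and 789 in VM NF against VM C, 279 higher in Ctx astrocytes and 1618 higher in Ctx NPCs. With the whole interval past 2-fold, 19 were higher and 6 lower in VM NF against untransduced VM and 365 higher in Ctx astrocytes.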
